A study of Rattus norvegicus with 9 samples.

Results

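The miR-9, miR-125, miR-99 and miR-100 miRNAs of the rat retina were taken as every row whose name is miR-9a, miR-125a, miR-125b, miR-99a, miR-99b or miR-100, with any arm or copy. The rule found 13 of the 465 mature miRNAs listed, among them rno-miR-9a-5p, rno-miR-9a-3p, rno-miR-125a-5p, rno-miR-125b-5p, rno-miR-99a-5p, rno-miR-99b-5p and rno-miR-100-5p (the prefix rno, for rat, is left off below). They were counted by small RNA sequencing in 9 libraries of retina from wild type Sprague Dawley rats, 3 libraries in each of 3 groups. The groups were rats with oxygen-induced retinopathy at postnatal day 29 (OIR P29), rats with oxygen-induced retinopathy at postnatal day 14 (OIR P14) and control rats labelled sham at postnatal day 14 (sham P14). In this model of the eye disease of preterm infants, altered oxygen around newborn rodents halts retinal vessel growth, and abnormal vessels follow. The labels do not give the oxygen schedule or the treatment of the sham rats, and do not say whether a library holds 1 animal or a pool. p-values therefore measure the spread between these libraries.

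miRNAs silence messenger RNAs that pair with their seed, the bases 2 to 8 from the 5′ end. miR-9 is a miRNA of neural progenitors and neurons, with targets that include the progenitor regulators Hes1 and Nr2e1 (TLX). miR-125 is the vertebrate form of the worm timing miRNA lin-4, and let-7, which lies in the same gene clusters, is a second worm timing miRNA. In mouse retina, let-7, miR-125 and miR-9 act together to move progenitors from early to late competence, through Lin28 and the receptor gene Prtg. The miR-99/100 miRNAs are transcribed beside let-7 and miR-125 and are known for repressing mTOR. At the ages studied here retinal progenitors have largely finished dividing, and neurons and Müller glia keep expressing these miRNAs.

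The sequences are shown because the family relations and gene copies decide which counts can be told apart. They come from RefSeq on build GRCr8, matched by name. A mature sequence was found for 12 of the 13 miRNAs, all but miR-99a-5p. The build behind the deposited counts is not given in the sources that were used here. Capitals mark the seed.
miR-9a-5p: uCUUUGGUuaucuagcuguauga
miR-9a-3p: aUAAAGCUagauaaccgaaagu
miR-125a-5p: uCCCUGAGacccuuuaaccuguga
miR-125b-5p: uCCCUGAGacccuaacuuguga
miR-351-5p: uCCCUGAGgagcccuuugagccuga
miR-99b-5p: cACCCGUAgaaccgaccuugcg
miR-100-5p: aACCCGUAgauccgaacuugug
miR-99b-3p: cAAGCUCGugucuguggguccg
miR-99a-3p: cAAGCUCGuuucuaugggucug
miR-125b-1-3p: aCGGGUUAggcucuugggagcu
miR-125b-2-3p: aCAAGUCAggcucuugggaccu

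miR-125a-5p and miR-125b-5p are identical over the first 13 bases from the 5′ end. miR-351-5p, which is no member, shares the miR-125 seed. No other miRNA of the table with a known sequence carries the seed of miR-9a-5p. miR-99b-5p and miR-100-5p share their seed and are identical at 18 of 22 bases, differing by C1A, A11U, C16A and C21U (miR-99b-5p first, positions from its 5′ end). The 3p arms of the 2 copies of miR-125b differ by G3A, G4A, U7C and G20C (miR-125b-1-3p first), also 18 of 22 identical, so their counts tell the copies apart. The 5p arm does not: miR-125b-5p is annotated at Mir125b2, and the same sequence lies whole in the hairpin of Mir125b1 (chr8:50850036-50850122, plus strand), printed here with both mature arms in capitals.
Mir125b1: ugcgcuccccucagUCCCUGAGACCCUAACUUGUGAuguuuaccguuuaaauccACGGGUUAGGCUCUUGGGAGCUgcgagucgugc

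miR-9a is made from 3 genes, Mir9-1 (chr2:175974971-175975059), Mir9-2 (chr2:15933292-15933378) and Mir9-3 (chr1:142849400-142849489), all on the plus strand of GRCr8. Their hairpins carry the same mature arms, in capitals below, around different loops, so a count of miR-9a is the sum of the 3 genes.
Mir9-1: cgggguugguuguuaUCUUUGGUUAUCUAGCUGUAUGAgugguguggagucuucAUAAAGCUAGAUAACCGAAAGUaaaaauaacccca
Mir9-2: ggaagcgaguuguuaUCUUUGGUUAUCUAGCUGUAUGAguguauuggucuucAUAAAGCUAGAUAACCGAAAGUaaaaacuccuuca
Mir9-3: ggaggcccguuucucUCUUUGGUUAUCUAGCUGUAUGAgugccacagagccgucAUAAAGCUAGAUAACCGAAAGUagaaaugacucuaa

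The other members fall into 3 gene clusters of GRCr8, each on the plus strand with 1 miR-99/100, 1 let-7 and 1 miR-125 gene. Mir99b, Mirlet7e and Mir125a lie within 696 bases (chr1:67350064-67350759). Mir99a, Mirlet7c1 and Mir125b2 span 45257 bases (chr11:29687392-29732648). Mir100, Mirlet7a-2 and Mir125b1 span 51828 bases (chr8:50798295-50850122). let-7a-5p and let-7c-5p are also made from a gene outside these clusters, so their counts are not those of the cluster alone.

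Total counts were 13088233 to 13973950 per library in OIR P29, 12694068 to 15260603 in OIR P14 and 11808893 to 12568341 in sham P14. Levels are in CPM, counts scaled to library size, and 3 counts, the limit that a count of 0 allows, amount to 0.197 to 0.254 CPM (counting error only). The retinal miRNAs miR-182, miR-183-5p, miR-96-5p and miR-124-3p together held 621093 to 673534 CPM in OIR P29, 745825 to 892007 CPM in OIR P14 and 662844 to 721394 CPM in sham P14, which fits the labelled tissue. CPM values come from 1 TMM normalization (a scaling on the bulk of miRNAs) of all 9 libraries, and can exceed shares of the total for abundant miRNAs. Libraries 47 of OIR P29, 38 of OIR P14 and 51 of sham P14 differed more from both their partners than those partners did from each other. The median absolute difference in log2 CPM over miRNAs was 0.206 and 0.163 for library 47 against 0.126 between its partners, 0.222 and 0.188 for library 38 against 0.153, and 0.218 and 0.251 for library 51 against 0.192. miR-184, a miRNA of lens and cornea, stood at 1944 CPM in library 47, against 14.3 and 35.7 CPM in the other OIR P29 libraries, and at 137 CPM in library 51, against 18.3 and 27.5 CPM in the other sham P14 libraries. miR-205, the other lens and cornea miRNA followed, was not the highest of its group in either library. It stood at 3.86 CPM in library 47, against 2.04 and 9.44 CPM in its partners. In library 51 it stood at 3.73 CPM, against 3.91 and 1.05 CPM.

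miR-9a-5p was the most abundant member in all 3 groups and ranked 7 among all miRNAs by mean count. It held 110700, 111420 and 119888 counts in OIR P29, 122275, 135976 and 136971 counts in OIR P14 and 105795, 136475 and 138567 counts in sham P14. In each group it was followed by miR-99b-5p, miR-125a-5p and miR-125b-5p, and the ranges of these 4 over the 3 libraries of a group did not overlap between neighbours. In OIR P29 the level of miR-9a-5p averaged 7994 ± 308 CPM, miR-99b-5p 4990 ± 443 CPM, miR-125a-5p 3618 ± 421 CPM and miR-125b-5p 1302 ± 205 CPM (SD over n = 3 libraries). The next places, between 266 and 142 CPM on average in OIR P29, belonged to miR-100-5p, miR-99a-5p, miR-9a-3p and miR-125b-2-3p, whose order changed from group to group. In OIR P29 miR-99a-5p, miR-9a-3p and miR-125b-2-3p overlapped as neighbours, in OIR P14 miR-100-5p and miR-9a-3p, and in sham P14 each neighbouring pair of the 4. The remaining 3p arms came last: miR-125b-1-3p, miR-99a-3p, miR-99b-3p, miR-125a-3p and miR-100-3p averaged 23.7, 17.5, 8.07, 3.81 and 0.589 CPM in OIR P29. The mature forms are 19 to 24 bases long, 22 to 24 for the 5p arms, so CPM needs little correction for length. The ligation preference of small RNA libraries for some ends was not corrected, so differences of level between miRNAs carry that limit.

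**Figure D1:**
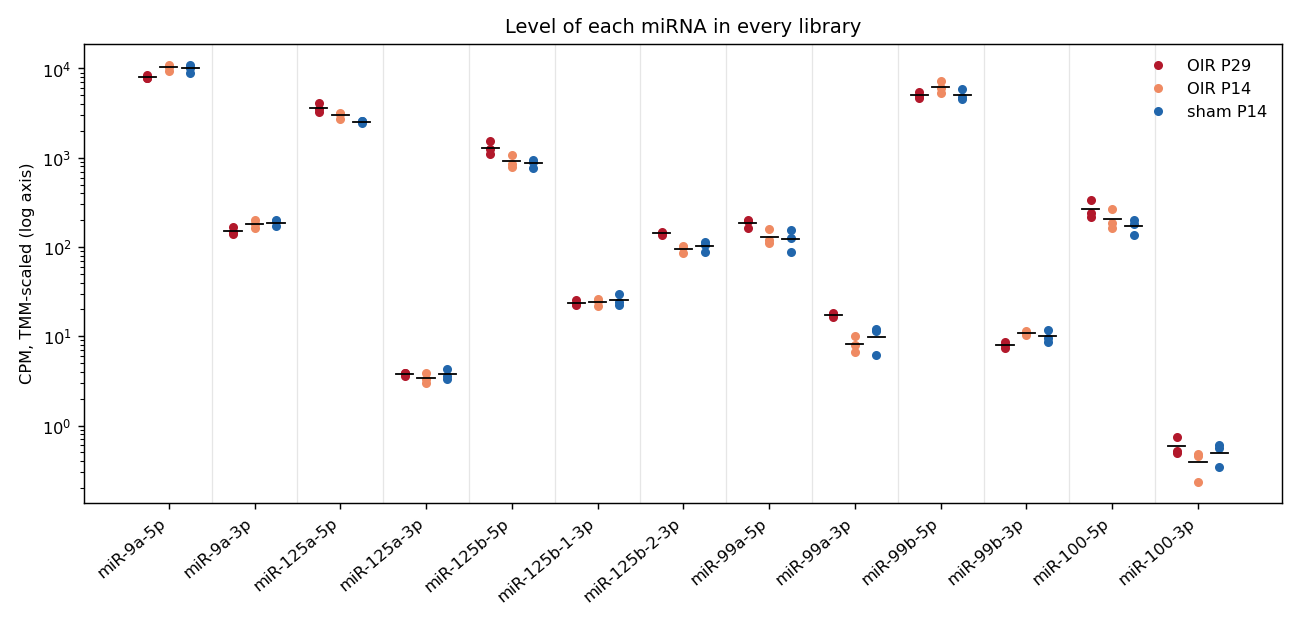
The plot gives the level of each of the 13 miRNAs in CPM after TMM scaling (log axis), with 1 point per library and a bar at the mean of 3, for OIR P29, OIR P14 and sham P14. miR-9a-5p is highest in every group, and miR-99a-3p of OIR P29 (mean 17.5 CPM) stands clear of OIR P14 (8.29 CPM).

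Within the miR-99/100 and miR-125 families most counts came from 1 gene. miR-99a-5p was counted with its family by name. miR-99b-5p supplied 93.7% of the summed miR-99/100 counts over the 9 libraries, miR-100-5p 3.75% and miR-99a-5p 2.57%. miR-125a-5p supplied 74.7% of the miR-125 counts and miR-125b-5p 25.3%. The 5p arms were the abundant ones, summed over gene copies where these share an arm: miR-9a-5p outnumbered miR-9a-3p by 53.0 ± 5.41 times in OIR P29, 56.7 ± 2.07 times in OIR P14 and 53.5 ± 2.40 times in sham P14 (SD over n = 3 libraries). For miR-125a the same ratio was 952 ± 115 in OIR P29, 888 ± 77.7 in OIR P14 and 692 ± 113 in sham P14 (SD over n = 3 libraries), with only 39 to 59 counts of the 3p arm per library.

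Setting OIR P29 beside OIR P14 follows the retina of the model to a later age. There is no sham group at P29 here, so age and stage of the model cannot be told apart. 12 of the 13 miRNAs passed the filter on low counts. 4 were higher and 4 lower in OIR P29 by edgeR's quasi-likelihood test at a Benjamini-Hochberg adjusted p under 0.05 over 424 miRNAs, and 4 were not called. In this comparison 46.7% of all miRNAs tested were called, 22.9% higher and 23.8% lower. miR-9a and miR-99b were lower in both arms, and miR-99a in both arms, miR-125b-5p and miR-125b-2-3p were higher. Between the groups 7 of the 12 did not overlap, 4 higher and 3 lower, beside 58% of all miRNAs (29.7% higher and 28.3% lower), and 8 of the 12 had an unadjusted p under 0.05, beside 55.4%. The median log2 fold of the 12 was 0.18, beside -0.01 over all miRNAs tested. In a whole retina, fewer cells of a type and less of the miRNA per cell cannot be told apart.

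**Figure D2:**
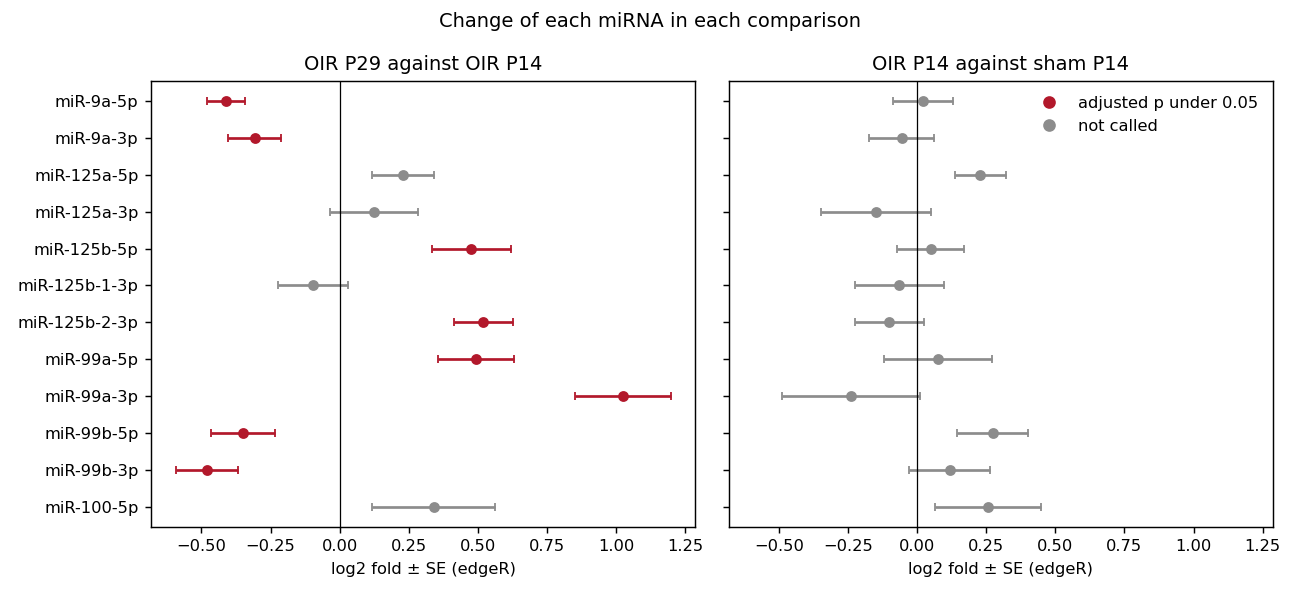
Points give the log2 fold with its standard error from edgeR for the 12 miRNAs that passed the filter, in OIR P29 against OIR P14 (left) and OIR P14 against sham P14 (right). Red marks an adjusted p under 0.05, reached by 8 on the left and 0 on the right.

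miR-9a-5p stood at 8349, 7795 and 7839 CPM in OIR P29, against 9463, 10377 and 10985 CPM in OIR P14. All 3 OIR P29 libraries lay below all 3 OIR P14 libraries. Its log2 fold was -0.41 ± 0.07 SE, 1.33 times lower (edgeR adjusted p = 0.00237). The passenger arm miR-9a-3p, which in mammals targets the REST cofactor RCOR1 (CoREST), stood at 149, 167 and 140 CPM in OIR P29, against 162, 181 and 202 CPM in OIR P14. In this scaling OIR P29 library 21 lay above OIR P14 library 11, and in that of the 6 libraries alone the groups did not overlap. The log2 fold of miR-9a-3p was -0.31 ± 0.10 SE (edgeR adjusted p = 0.0339), and its call was lost without any 1 of the 6 libraries.

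The fall of miR-9a depends on the scaling. With libraries scaled on total counts alone, the median log2 fold of all miRNAs was 0.25 in place of -0.01, and the log2 folds were -0.15 for miR-9a-5p (edgeR adjusted p = 0.273) and -0.05 for miR-9a-3p (0.800). Over 14 alternatives the adjusted p of miR-9a-5p passed the threshold in all but that one. With miR-182 left out of the counts, miR-9a-3p lost its call (log2 fold -0.29, edgeR adjusted p = 0.0505). miR-182 averaged 569221 CPM in OIR P29 and 732543 CPM in OIR P14, with a log2 fold of -0.42 ± 0.11 SE (edgeR adjusted p = 0.0143). Of the other retinal miRNAs, miR-183-5p was called lower (-0.41 ± 0.09 SE, 0.00701) and miR-96-5p higher (0.33 ± 0.10 SE, 0.0269). As a share of all reads miR-9a-5p held 0.841% to 0.858% in OIR P29, within the 0.801% to 1.08% of OIR P14.

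Ratios within a library do not depend on the scaling between libraries. The count of miR-9a-5p over that of the neuronal miR-124-3p was 1.32, 1.06 and 1.11 in OIR P29, against 2.12, 2.22 and 1.69 in OIR P14. The groups did not overlap, and the log2 ratio differed by -0.78 (OIR P29 minus OIR P14). The exact permutation test, 2-sided, gave p = 0.1, which is the smallest that 3 libraries against 3 allow, and 0.225 after Benjamini-Hochberg adjustment over 9 ratios. miR-124-3p itself averaged 6894 ± 535 CPM in OIR P29 and 5214 ± 1113 CPM in OIR P14 (each mean ± SD, n = 3). With a log2 fold of 0.36 ± 0.13 SE it missed the threshold (edgeR adjusted p = 0.0520), but it was called higher in 6 of 14 alternatives, among them DESeq2 (0.0221) and edgeR without OIR P14 library 38 (0.00396). The other arm, miR-124-5p, was lower in OIR P29 (log2 fold -0.53 ± 0.08 SE, edgeR adjusted p = 0.00156), so the ratio speaks of miR-124-3p alone.

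Of the 4 members higher in OIR P29, both arms of miR-99a and miR-125b-2-3p come from the cluster of miR-99a, let-7c-1 and miR-125b-2, and miR-125b-5p comes from this cluster and that of miR-100. miR-99a-3p had 243, 233 and 274 counts in OIR P29, against 104, 132 and 84 in OIR P14, or 17.5 ± 1.07 CPM against 8.29 ± 1.68 CPM (SD over n = 3 libraries). The groups were well apart, with a log2 fold of 1.02 ± 0.17 SE, 2.03-fold higher (edgeR adjusted p = 0.00237), the largest change among the 12. miR-99a-5p, which targets mTOR, stood at 165, 203 and 196 CPM in OIR P29, against 119, 112 and 159 CPM in OIR P14. Its lowest OIR P29 library lay just above its highest OIR P14 library, and the log2 fold was 0.49 ± 0.14 SE (edgeR adjusted p = 0.0215).

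miR-125b-2-3p, the arm that marks the copy in this cluster, had 1933, 2078 and 2085 counts in OIR P29, against 1316, 1301 and 1075 in OIR P14. The log2 fold was 0.52 ± 0.11 SE, 1.43-fold higher (edgeR adjusted p = 0.00551), with no overlap. miR-125b-5p, a miRNA of neurons and Müller glia, stood at 1116, 1267 and 1523 CPM in OIR P29, against 859, 798 and 1069 CPM in OIR P14, again without overlap but with 47 and 38 the highest library of each group. Its log2 fold was 0.48 ± 0.14 SE (edgeR adjusted p = 0.0275). let-7c-5p, which comes from this cluster and from a gene elsewhere, averaged 1739 ± 109 CPM in OIR P29 and 1200 ± 36.7 CPM in OIR P14 (each mean ± SD, n = 3), and its log2 fold was 0.49 ± 0.07 SE (edgeR adjusted p = 0.00150). let-7c-1-3p, the arm that belongs to this cluster alone, had only 11 to 23 counts per library in these groups and a log2 fold of -0.17 ± 0.31 SE that was not called (edgeR adjusted p = 0.689); this arm was added after its values were seen.

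The calls of miR-99a-3p and miR-125b-2-3p held in 14 of 14 alternatives, with adjusted p up to 0.00804 and 0.0107. The 5p arms were less firm: without OIR P29 library 47 the edgeR adjusted p was 0.0572 for miR-125b-5p (log2 fold 0.39) and 0.0539 for miR-99a-5p (0.50). Both also lost their call without OIR P14 library 11 (0.0761 and 0.0783) or 12 (0.0802 and 0.0764), and miR-99a-5p without OIR P29 library 21 (0.0717).

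The other copy of miR-125b did not show the same change. miR-125b-1-3p, from the cluster with miR-100, had 306, 320 and 393 counts in OIR P29, against 342, 327 and 274 in OIR P14, and the groups overlapped. Its log2 fold was -0.10 ± 0.13 SE, not called (edgeR adjusted p = 0.568). Within a library, miR-125b-2-3p outnumbered miR-125b-1-3p by 6.32, 6.49 and 5.31 times in OIR P29, against 3.85, 3.98 and 3.92 times in OIR P14. Between these 2 groups the log2 ratio was higher in OIR P29 by 0.62 without overlap (exact permutation test, 2-sided, p = 0.1, the smallest possible). This ratio was chosen after the values were seen. In sham P14 it was more spread, at 4.74, 4.67 and 2.98 times. miR-100-5p, the other member at this locus, had 2911, 3402 and 5195 counts in OIR P29, against 2380, 2115 and 3349 in OIR P14. Library 47 was far above its partners, the groups overlapped after scaling, and the log2 fold of 0.34 ± 0.22 SE was not called (edgeR adjusted p = 0.238). The planned ratio between the 5p arms of these 2 clusters, miR-100-5p over miR-99a-5p, overlapped between the groups. It averaged 1.41 ± 0.287 in OIR P29 and 1.56 ± 0.123 in OIR P14 (SD, n = 3 each; exact permutation p = 0.5). miR-100-3p, at 7 to 10 counts in OIR P29 and 3 to 6 in OIR P14, was left out by the filter in both comparisons. Without the filter its log2 fold was 0.54 ± 0.38 SE (edgeR adjusted p = 0.338).

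In the compact miR-99b cluster only the arms of miR-99b were called in the fit of the 6 libraries. miR-99b-5p, the chief miRNA of its family, stood at 4616, 4875 and 5480 CPM in OIR P29, against 6050, 5265 and 7206 CPM in OIR P14, with OIR P29 library 47 above OIR P14 library 12. The log2 fold was -0.35 ± 0.12 SE (edgeR adjusted p = 0.0412), 1.27 times lower. miR-99b-3p had 107, 124 and 114 counts in OIR P29, against 142, 134 and 142 in OIR P14, without overlap and with a log2 fold of -0.48 ± 0.11 SE (edgeR adjusted p = 0.00947). miR-125a-5p, its neighbour, had 43099, 50392 and 62354 counts in OIR P29, against 40967, 35474 and 38493 in OIR P14. Its raw counts did not overlap, but after TMM scaling of the 6 libraries the groups overlapped, and the log2 fold of 0.23 ± 0.11 SE was not called (edgeR adjusted p = 0.130). In the scaling of all 9 libraries they stood just apart, at 3250, 3525 and 4077 CPM against 3170, 2707 and 3087 CPM. With all 9 libraries fitted together miR-125a-5p was called (log2 fold 0.28, edgeR adjusted p = 0.0413). In that fit miR-99b-5p and miR-9a-3p lost their calls. miR-125a-3p had 52 to 59 counts in OIR P29 and 39 to 48 in OIR P14, with a log2 fold of 0.12 ± 0.16 SE (edgeR adjusted p = 0.566). let-7e-5p, between them, averaged 439 ± 15.3 CPM in OIR P29 and 409 ± 86.2 CPM in OIR P14 (each mean ± SD, n = 3), and its log2 fold was 0.06 ± 0.14 SE, not called (edgeR adjusted p = 0.782).

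The count of miR-125a-5p per count of miR-99b-5p was 0.704, 0.723 and 0.744 in OIR P29, against 0.524, 0.514 and 0.428 in OIR P14. These ranges were far apart, and the log2 ratio was higher by 0.57. For let-7e-5p per miR-99b-5p the ratio averaged 0.0883 ± 0.00672 in OIR P29 and 0.0660 ± 0.00595 in OIR P14 (SD over n = 3 libraries), also without overlap. The paralog ratio of miR-99a-5p to miR-99b-5p averaged 0.0377 ± 0.00340 in OIR P29 and 0.0209 ± 0.00123 in OIR P14 (SD over n = 3 libraries), 1.80 times higher in OIR P29 and without overlap. Each of these 3 had p = 0.1 in the exact permutation test, 2-sided, and 0.225 after adjustment over the 9 ratios. By contrast miR-125b-5p per miR-99a-5p, from 1 cluster but with miR-125b-1 adding to the numerator, averaged 6.92 ± 0.765 in OIR P29 and 7.04 ± 0.269 in OIR P14 (SD, n = 3 each; exact permutation p = 0.9).

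**Figure D3:**
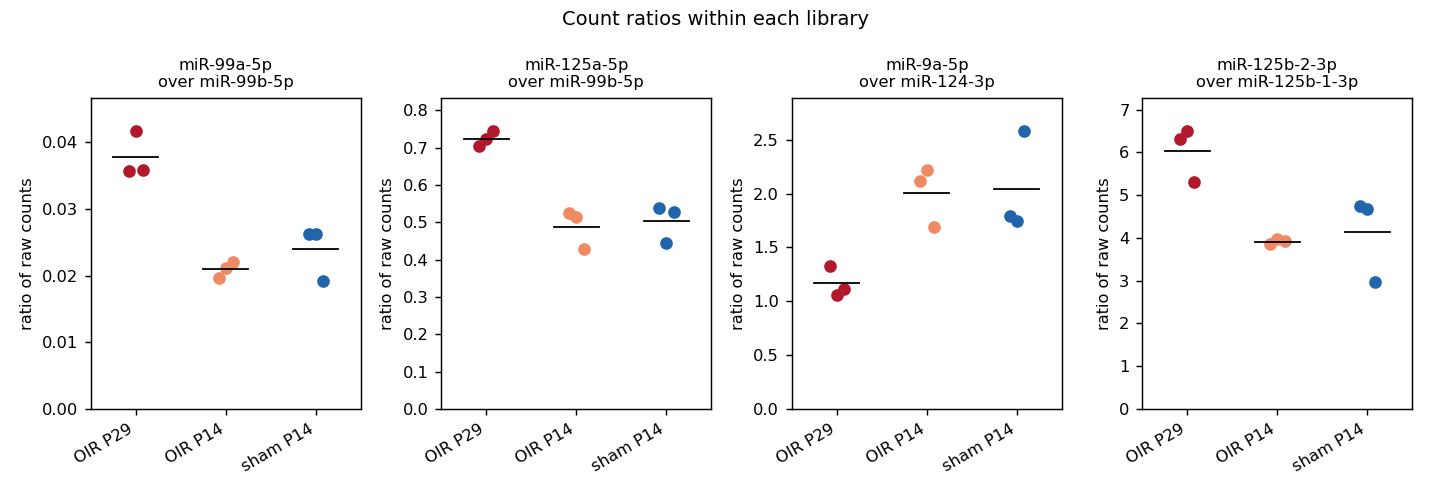
Each panel gives a ratio of raw counts within a library (linear axis from 0), with 1 point per library and a bar at the mean of 3. OIR P29 stands apart from OIR P14 in all 4 panels, for example 0.704 to 0.744 against 0.428 to 0.524 for miR-125a-5p over miR-99b-5p. Ratios that overlapped between these groups, among them miR-125b-5p over miR-99a-5p, are not drawn. The ratio of miR-125b-2-3p over miR-125b-1-3p was chosen after its values were seen.

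The falls of miR-99b have the limits of those of miR-9a. Scaled on total counts alone, the log2 fold was -0.09 for miR-99b-5p and -0.21 for miR-99b-3p (edgeR adjusted p = 0.656 and 0.270), while the 4 higher members kept their calls and miR-125a-5p joined them (log2 fold 0.50, edgeR adjusted p = 0.0138). miR-99b-5p lost its call without any library but OIR P14 library 12 (edgeR adjusted p = 0.0572 to 0.194), and miR-99b-3p without OIR P29 library 20 (0.0529) or 47 (0.0541) or OIR P14 library 11 (0.0529). miR-125a-5p was called without OIR P29 library 20 (log2 fold 0.35, edgeR adjusted p = 0.0387). Without OIR P29 library 47, 3 members were called in all (miR-9a-5p, miR-99a-3p and miR-125b-2-3p), and likewise 3 without OIR P14 library 11. By the authors' deposited table, 6 of the 13 had a false discovery rate under 0.05, since miR-99b-5p (log2 fold -0.32) and miR-9a-3p (-0.28) stood at 0.0510 and 0.0601. The share of all miRNAs called without a library or by the deposited table is not given here. These losses are therefore not shown to be particular to the members.

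Summed by seed, the miR-125 family reached 4920 ± 626 CPM in OIR P29 and 3897 ± 345 CPM in OIR P14, while miR-99/100 stood at 5444 ± 520 CPM in OIR P29 and 6508 ± 1056 CPM in OIR P14 (SD over n = 3 libraries). The miR-125 sums did not overlap (exact permutation test, 2-sided, p = 0.1) and those of miR-99/100 did (p = 0.2). The adjusted values over 3 families were 0.15 and 0.2. miR-351-5p, which shares the miR-125 seed, had a log2 fold of -0.46 ± 0.19 SE that was not called (edgeR adjusted p = 0.0796). It was called lower with DESeq2 (0.0275) and by edgeR without OIR P29 library 47 (0.0194) or OIR P14 library 38 (0.0350). With 46.4 CPM in OIR P29 it adds little to the family.

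At P14 the model and its control can be compared at 1 age. edgeR's quasi-likelihood test called 0 of the 12 that passed the filter, and DESeq2, limma-voom and the authors' deposited table also 0. In this comparison 1.69% of all 415 miRNAs tested were called. At an unadjusted p under 0.05 there was 1 of the 12, miR-125a-5p, beside 9.16% of all miRNAs. Log2 folds ran from -0.24 to 0.27 with standard errors from 0.09 to 0.25. This comparison shares the OIR P14 libraries with the preceding one, so their values are not independent.

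miR-125a-5p had 40967, 35474 and 38493 counts in OIR P14, against 30661, 34748 and 30614 in sham P14. The lowest OIR P14 library lay above the highest sham P14 library, as it did for 6.02% of all miRNAs (15.2% in either direction). The log2 fold was 0.23 ± 0.09 SE (unadjusted p = 0.0342, edgeR adjusted p = 0.419), and 0.05 with libraries scaled on total counts alone, a scaling under which all miRNAs had a median of -0.21. miR-99b-5p, its cluster partner, stood at 6050, 5265 and 7206 CPM in OIR P14, against 4853, 5868 and 4592 CPM in sham P14. These overlapped, with a log2 fold of 0.27 ± 0.13 SE (edgeR adjusted p = 0.561).

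miR-9a-5p had a log2 fold of 0.02 ± 0.11 SE between OIR P14 and sham P14, miR-9a-3p of -0.06 ± 0.12, miR-125b-5p of 0.05 ± 0.12 and miR-99a-5p of 0.07 ± 0.20. Their edgeR adjusted p ran from 0.903 to 0.947, and the sign of each changed under at least 1 alternative. miR-100-5p (log2 fold 0.26 ± 0.19 SE), miR-99a-3p (-0.24 ± 0.25), miR-125a-3p (-0.15 ± 0.20), miR-99b-3p (0.12 ± 0.15), miR-125b-2-3p (-0.10 ± 0.12) and miR-125b-1-3p (-0.06 ± 0.16) were not called either. Sham P14 library 51 was the lowest of its group for 8 of the 12 miRNAs, among them miR-99a-3p at 78 counts against 141 and 151 in its partners.

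The 5p arms of the let-7 cluster partners had log2 folds below 0 at P14, none of them called, while let-7c-1-3p stood at 0.06. let-7c-5p averaged 1200 ± 36.7 CPM in OIR P14 and 1542 ± 275 CPM in sham P14 (each mean ± SD, n = 3), and its log2 fold was -0.37 ± 0.14 SE, without overlap but not called (edgeR adjusted p = 0.399). let-7a-5p (-0.33 ± 0.16) and let-7e-5p (-0.26 ± 0.17) were not called either (edgeR adjusted p = 0.565 and 0.624). Sham P14 library 51 was the highest of its group for each of these 5p arms. It held 1859 CPM of let-7c-5p against 1404 and 1362, 4061 CPM of let-7a-5p against 3169 and 3132, and 563 CPM of let-7e-5p against 463 and 437. Over 14 alternatives the log2 fold of let-7c-5p ran from -0.55 to -0.19. Per count of miR-99b-5p, let-7e-5p stood at 0.0715, 0.0597 and 0.0669 in OIR P14, against 0.0954, 0.0745 and 0.123 in sham P14. The groups did not overlap, and the log2 ratio differed by -0.54, OIR P14 minus sham P14 (exact permutation test, 2-sided, p = 0.1; 0.36 adjusted over 9 ratios). Of the other ratios, miR-125a-5p over miR-125a-3p was also without overlap and higher by 0.37 on the log2 scale (exact permutation p = 0.1; 0.36 adjusted).

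**Figure D4:**
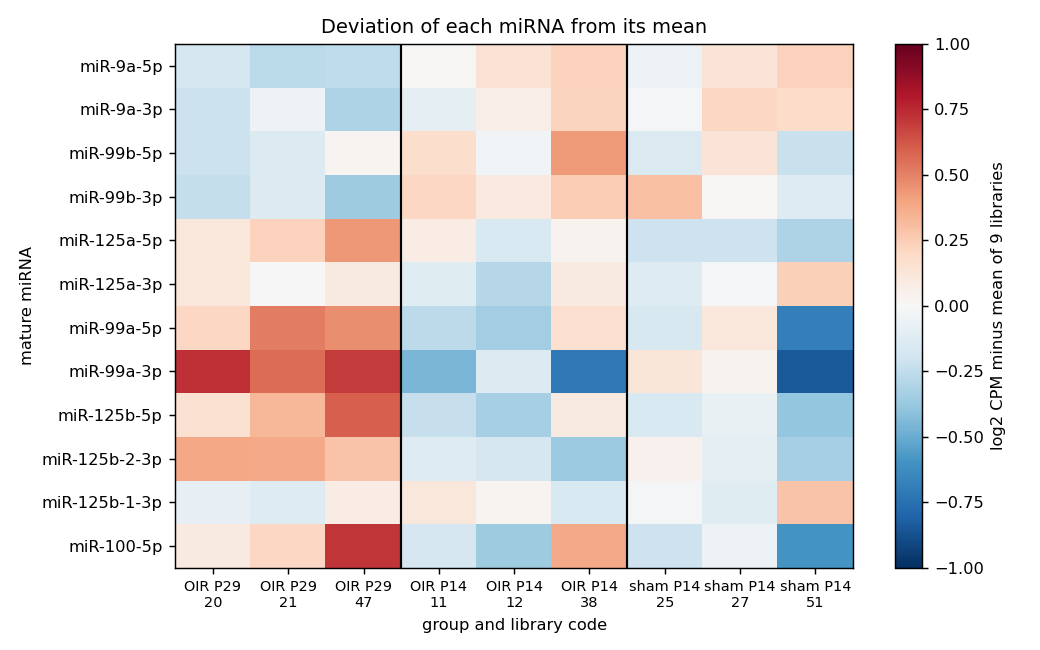
Colour gives log2 CPM of each of 12 miRNAs minus its mean over the 9 libraries, with libraries of OIR P29, OIR P14 and sham P14 from left to right. miR-9a is above its mean in most P14 libraries and below it in OIR P29, miR-99a-3p is high in OIR P29, and sham P14 library 51 is low for several miRNAs.

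Partner miRNAs were followed as a list of 30: every measured arm of let-7, miR-98, miR-124, miR-9b, miR-351, miR-181a and miR-181b. Not all of them are timing miRNAs, and miR-351 was listed for the miR-125 seed. In OIR P29 against OIR P14, 3 of the 30 were higher and 5 lower by edgeR's test, beside 22.9% higher and 23.8% lower among all miRNAs, and the median log2 fold was 0.05 beside -0.01. The 3 higher were let-7c-5p, let-7b-5p (log2 fold 0.41 ± 0.07 SE, edgeR adjusted p = 0.00282) and let-7b-3p (0.67 ± 0.15, 0.00706), and their calls held in all 14 alternatives. let-7a-5p had a log2 fold of 0.29 ± 0.11 SE and was not called (edgeR adjusted p = 0.0706), except without OIR P14 library 38 and with totals alone. The 3 of smallest p among the lower were miR-181a-1-3p (log2 fold -0.77 ± 0.08 SE, edgeR adjusted p = 0.000371), miR-124-5p (-0.53 ± 0.08, 0.00156) and miR-181b-1-3p (-0.60 ± 0.13, 0.00625). On total counts alone miR-181a-1-3p kept its call, and miR-124-5p and miR-181b-1-3p did not. The miR-181 arms among these are the scarcer ones, at 607 CPM for miR-181a-1-3p and 10.4 CPM for miR-181b-1-3p on average in OIR P29. miR-181a-5p averaged 110611 CPM there and was not called (log2 fold -0.18 ± 0.11 SE, edgeR adjusted p = 0.201). Nor was miR-181b-5p at 5836 CPM (0.09 ± 0.13 SE, 0.602). In OIR P14 against sham P14, 0 of the 30 were called, beside 1.69% of all miRNAs, with a median log2 fold of -0.05 beside -0.03 over all miRNAs.

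miR-9b-5p, among the lower of the list, lies on the opposite strand of miR-9a-3p at 3 of 3 Mir9 genes, and its sequence is contained in the reverse complement of miR-9a-3p. It is named here for that position. It had 8, 5 and 11 counts in OIR P29, against 12, 14 and 16 in OIR P14, a log2 fold of -0.998 ± 0.302 SE (edgeR adjusted p = 0.0286) that lost its call in 7 of 14 alternatives. Whether the counting used the strand is not given in the sources that were used here.

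**Figure D5:**
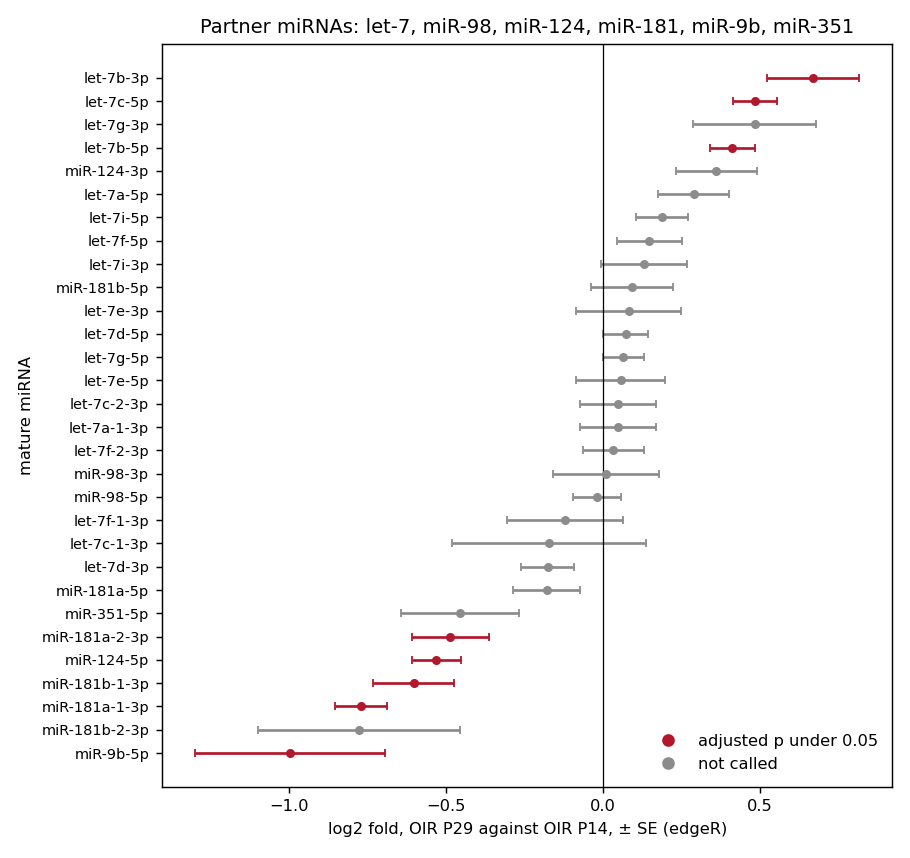
Points give the log2 fold of OIR P29 against OIR P14 with its standard error for the 30 partner miRNAs, ordered by fold. Red marks an adjusted p under 0.05, with 3 miRNAs to the right of 0 and 5 to the left.

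Likeness over the 9 libraries was measured as the root mean square difference between centred log2 CPM values. The miRNAs most like miR-9a-5p outside the group were miR-181c-5p (0.067), miR-124-5p (0.0753) and miR-127-5p (0.115), where the median miRNA of 411 stood at 0.345. For miR-125b-5p they were miR-30a-5p (0.103), miR-24-3p (0.111) and miR-124-3p (0.119), against a median of 0.398. For miR-99a-5p they were miR-124-3p (0.124), miR-326-3p (0.141) and let-7b-3p (0.147), against 0.456. Among the members, the closest were the arms of miR-9a (0.0931), then miR-125b-5p with miR-100-5p (0.139) and with miR-99a-5p (0.144). All values share the libraries and their scaling, and are a description.

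Markers of other cells are given by their summed levels. In OIR P29 against OIR P14 edgeR called both endothelial, both mural and both pigment epithelium and Müller glia miRNAs higher. In OIR P14 against sham P14 it called both endothelial and 1 of 2 mural miRNAs lower, and neither of the pigment epithelium and Müller glia pair. The endothelial miR-126a arms summed to 500 to 539 CPM in OIR P29, 165 to 313 CPM in OIR P14 and 614 to 724 CPM in sham P14. The mural miR-143-3p and miR-145-5p summed to 1490 to 1555 CPM in OIR P29, 297 to 619 CPM in OIR P14 and 1128 to 1280 CPM in sham P14. miR-204-5p and miR-211-5p, of pigment epithelium and Müller glia, summed to 31373 to 35926 CPM in OIR P29, 18883 to 24020 CPM in OIR P14 and 12021 to 19595 CPM in sham P14. The 4 leukocyte miRNAs measured summed to 40.9 to 43.4 CPM in OIR P29, 9.67 to 15.5 CPM in OIR P14 and 23.8 to 32.3 CPM in sham P14, with 1 of 4 called higher in OIR P29 than in OIR P14 and a median log2 fold of -0.17. The called one was miR-150-5p at 36.5, 6.57 and 23.3 CPM on average in these groups (log2 fold 2.43 ± 0.16 SE, edgeR adjusted p = 5.35e-05), also lower in OIR P14 than in sham P14 (-1.83 ± 0.20 SE). The 3 erythroid miRNAs summed to 1073 to 1168 CPM in OIR P29, 962 to 1050 CPM in OIR P14 and 1020 to 1168 CPM in sham P14, nearly all of it miR-486, which was not called. The erythroid miR-451-5p averaged 10.8 CPM in OIR P29, 1.22 CPM in OIR P14 and 5.13 CPM in sham P14, a log2 fold of 3.08 ± 0.25 SE for OIR P29 against OIR P14 (edgeR adjusted p = 0.000107) and of -2.07 ± 0.31 SE for OIR P14 against sham P14 (0.0105). miR-144-3p averaged 3.62 CPM in OIR P29, 0.523 CPM in OIR P14 and 1.63 CPM in sham P14, with a log2 fold of 2.72 ± 0.41 SE for OIR P29 against OIR P14 (edgeR adjusted p = 0.00157). miR-133a-3p, the 1 muscle marker measured, stood at 6.11 to 12.4 CPM in OIR P29, 4.95 to 7.86 CPM in OIR P14 and 7.65 to 9.43 CPM in sham P14, and was not called in either comparison. The lens and cornea miRNAs miR-184 and miR-205 summed to 16.4 to 1948, 29.3 to 62.4 and 22.2 to 141 CPM in the same groups, and neither was called in either comparison. The liver marker was not among the miRNAs listed. No marker measured was at 0 throughout a group, and the part of other cells in the results above was not tested.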

How the data were processed

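The authors deposited 2 tables with whole-number read counts per mature miRNA and, per the file headers, a log2 fold and a false discovery rate (an adjusted p-value) for each of their comparisons. Per the submitters' processing notes limma was used; the aligner, counter, build and filter are not given in the sources that were used here. Libraries were tied to groups by the tables that hold their codes: 11, 12 and 38 stand in both, with 1395 of 1395 identical counts, and are OIR P14. The deposited counts were fitted per comparison with edgeR 4.0.16 in R 4.3.3 (TMM, filterByExpr with a minimum count of 10 and total of 15, quasi-likelihood F test). p-values were adjusted over the 424 miRNAs that passed in OIR P29 against OIR P14 and over the 415 in OIR P14 against sham P14. A standard error is the size of the log2 fold over the square root of F. Tests of log2 ratios used counts plus 0.5. Alternatives were DESeq2 1.42.0, limma-voom (limma 3.58.1), other scalings and filters, and each library left out. The fit was tested on simulated data with 200 miRNAs changed per draw. It recovered 63.0% of 1.5-fold changes in OIR P14 against sham P14 and 62.7% in OIR P29 against OIR P14. False calls were 1.94% and 2.95% of the calls. Changes smaller than 1.5-fold were not simulated. The marker and partner lists are named with their results. The members, lists and ratios were chosen with earlier results of these data known. Named miRNAs are all members, their let-7 partners, seed sharers, the 3 called partners of smallest p in each direction, and the 3 most alike in pattern; let-7c-1-3p and miR-9b-5p were added after their values were seen.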

Additional observations from a re-analysis of the deposited data

How the results depend on the processing

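No paired analysis was possible because the columns carry library codes that cannot be tied to the replicate numbers of the labels. In OIR P29 against OIR P14 the number of members called was 8, and 5 with libraries scaled on total counts alone. Leaving out 1 library gave 3 to 6. The number of all miRNAs called under these settings is not given here for this comparison. All miRNAs called in OIR P14 against sham P14 numbered 7, and 13 with DESeq2; leaving out 1 library gave 1 to 7. Scaling on totals turned the sign at P14 for the log2 folds of miR-125b-5p (-0.12), miR-99a-5p (-0.10), miR-99b-3p (-0.062) and miR-9a-5p (-0.15), the miR-9 sum (-0.16) and the miR-125 sum (-0.0018), and at P29 for miR-125b-1-3p (0.18). Under that scaling the median log2 fold of all miRNAs moved as well, by the values given above. It leaves out the TMM factors, which were 0.847, 0.906 and 0.982 in OIR P14. They were 1.01, 1.08 and 1.09 in OIR P29 and 0.996, 1.06 and 1.05 in sham P14. Which scaling is nearer to the tissue was not tested. Leaving out 1 library turned other signs, with log2 ranges at P14 of -0.046 to 0.114 for miR-9a-5p, -0.13 to 0.024 for miR-9a-3p, -0.17 to 0.090 for miR-125b-1-3p, -0.072 to 0.13 for miR-125b-5p, -0.10 to 0.25 for miR-99a-5p and -0.048 to 0.095 for the miR-9 sum. For log2 ratios at P14 the ranges were -0.13 to 0.050 for miR-125a-5p over miR-99b-5p, -0.16 to 0.084 for miR-125b-5p over miR-99a-5p, -0.11 to 0.17 for miR-9a-5p over miR-124-3p and -0.26 to 0.070 for miR-125b-2-3p over miR-125b-1-3p. At P29 they were -0.11 to 0.042 for miR-125b-5p over miR-99a-5p, -0.19 to 0.014 for the fold of miR-125b-1-3p and -0.068 to 0.16 for that of let-7e-5p. Over the members' folds, 132 of 168 values at P29 kept direction and side of the threshold, 31 lost the call, 3 gained it and 2 turned sign; at P14 155 of 168 kept both and 13 turned sign. The cause was not tested. Leaving out a library leaves 2 against 3. miR-100-3p had 3 to 10 counts per library, too few to pass the filter.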
